A study of Mus musculus with 4 samples.

Results

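Heme breakdown, transport and synthesis were followed through 9 genes, Hmox1, Hmox2, Blvra, Blvrb, Slc48a1, Flvcr1, Alas1, Fech and Urod, which were taken by name from the 27998 genes of the count matrices. The study asked how the repressor BACH1 acts in the leukocytes of regenerating muscle. Cardiotoxin, a snake venom toxin that kills muscle fibers, was injected into the tibialis anterior, and CD45+ cells were pulled out with magnetic beads for droplet-based 3′ single-cell RNA-seq at 2 or 4 days post-injury (dpi2 and dpi4). All 4 libraries came from injured male C57BL/6 mice aged 8-12 weeks. The controls were Bach1 fl/fl littermates, and the mice labelled KO were Bach1 fl/fl carrying Lyz2-Cre, so that both genotypes held the floxed allele. Each combination of genotype and day was 1 library (n = 1 per group), and the labels do not give the number of mice in it, so no difference between libraries has a replicate check. Lyz2-Cre is driven by the lysozyme M promoter, which is active in monocytes, macrophages and neutrophils and is not a promoter of T, NK or B cells.

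Heme oxygenase opens the heme ring and releases iron, carbon monoxide and biliverdin. Hmox1 encodes the inducible form and Hmox2 the constitutive form, and the biliverdin reductases encoded by Blvra and Blvrb complete the step to bilirubin. Macrophages that clear red cells or damaged muscle take up large amounts of heme with hemoglobin and myoglobin. Slc48a1 (HRG1) carries heme out of the phagolysosome into the cytosol, Flvcr1 exports heme across the cell membrane, and Alas1, Urod and Fech catalyse the first, an intermediate and the last step of heme synthesis. BACH1 is a heme-binding repressor that competes with NRF2 for DNA elements shared with small MAF proteins, and Hmox1 is its best-known target.

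The 4 libraries held 4177 to 6602 barcodes and 57010520 to 80228489 unique molecular identifiers (UMIs, single captured transcripts), and 3433 to 5721 cells per library passed the filters. Cells were clustered without the heme genes and called macrophage-like, monocyte-like, neutrophil-like, dendritic cell-like and T or NK cell-like from marker genes, since no annotation was used. At dpi2 most macrophage-like cells of the control lay in a cluster led by Hmga2 and Htr2b (1183 of 1912), whereas the largest group in the labelled KO library lay in a cluster led by Jag1 and Pdpn (429 of 1071). At dpi4 the cluster led by Vcam1 and Slc40a1 was the largest in both genotypes, but a finer clustering of monocyte-like and macrophage-like cells parted the genotypes there too. Its sub-cluster led by H2-Aa and Cd83 held 1163 control and 305 labelled KO cells at dpi4, and that led by Slc40a1, Vcam1 and Spic 42 and 778. Monocyte-like cells at dpi2 also lay in different clusters, since the cluster led by Vcan and Il6 held 83 of 2623 control and 544 of 999 labelled KO cells, and that led by Ly6c2 and Ms4a4c 1310 and 229. Any pair of libraries shared 2 to 14 barcodes, at most 0.335% of a library. Levels below are counts-per-million values (CPM), the UMIs of a gene scaled to the summed UMIs of a class in a library, and every interval is a 95% interval that covers counting error only. In such sums, fewer expressing cells and less RNA per cell cannot be told apart.

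The targeted gene does not check the labels. Bach1 in macrophage-like cells stood at 123, 144, 214 and 228 CPM at dpi2 in the control, at dpi2 in the library labelled KO, and then likewise at dpi4, the order used for all lists of 4 values below. The loxP sites flank an exon that encodes the DNA-binding domain, and 3′ tags lie outside it. Lyz2 was 8211 and 18419 CPM in the control macrophage-like cells and 12.8 and 24.4 CPM in those of the libraries labelled KO. The Lyz2-Cre allele is known as a knock-in that disrupts Lyz2. The genotypes thus differed in Lyz2 as well as in Bach1, and the parts of these alleles in any value below cannot be told apart.

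The positions of the members in GRCm38 (GENCODE M21) were as follows. Hmox1 lies at chr8:75093621-75100589 (+), Hmox2 at chr16:4726361-4766742 (+), Blvra at chr2:127070665-127097084 (+) and Blvrb at chr7:27447978-27466144 (+). Slc48a1 lies at chr15:97778520-97792692 (+), Flvcr1 at chr1:191005847-191026158 (-), Alas1 at chr9:106233455-106248654 (-) and Urod at chr4:116989965-116994413 (-). All 9 members, Fech included, are protein-coding genes on different chromosomes. Slc48a1 overlaps Hdac7 on the other strand, but Hdac7 gave 357 to 612 UMIs in the macrophage-like cells of a library against 5016 to 25939 for Slc48a1.

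Because BACH1 is a DNA-binding repressor, the promoter windows of the members were read for the letters of its elements. The RefSeq promoters of GRCm38.p6 run from 250 bases before to 50 bases after the annotated start, and those of 6 of the 9 members were read, with 10 distinct windows. Hmox1, Slc48a1 and Fech were not read. None of the windows read held TGANTCAGC, the core that BACH1, NRF2 and small MAF proteins share, which is found in 1.19% of all 32851 promoters on either strand. None of them held the AP-1-type TGANTCA, which overlaps it and is found in 7.81%. TGACNNNGC, the antioxidant response core, is found in 12.4% of promoters and was found in those of Blvra and Flvcr1, shown here because they were the windows with a match. Capitals mark the match, which begins at -49 (GCTCGGTCA, on the other strand) in Blvra, chr2:127070407-127070706 (+), and at -151 (TGACCCCGC) in Flvcr1, chr1:191026141-191026440 (-). Neither Blvra nor Flvcr1 differed by 2-fold between genotypes in macrophage-like cells.
Blvra promoter: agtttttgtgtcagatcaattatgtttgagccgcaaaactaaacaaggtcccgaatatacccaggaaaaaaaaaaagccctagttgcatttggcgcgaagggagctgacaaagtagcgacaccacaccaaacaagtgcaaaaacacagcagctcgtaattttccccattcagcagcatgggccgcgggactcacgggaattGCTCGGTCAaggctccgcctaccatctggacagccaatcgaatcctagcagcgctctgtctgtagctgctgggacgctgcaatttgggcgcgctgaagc
Flvcr1 promoter: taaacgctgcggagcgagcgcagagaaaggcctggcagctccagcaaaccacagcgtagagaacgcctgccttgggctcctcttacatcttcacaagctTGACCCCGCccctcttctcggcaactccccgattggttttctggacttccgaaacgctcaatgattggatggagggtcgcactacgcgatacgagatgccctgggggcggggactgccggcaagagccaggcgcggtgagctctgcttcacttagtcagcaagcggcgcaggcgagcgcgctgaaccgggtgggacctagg

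Hmox1, the inducible heme oxygenase, was higher in the libraries labelled KO than in the controls in every myeloid class at both days, by 3.50-fold to 51.1-fold. In macrophage-like cells its level was 692, 10419, 507 and 7467 CPM, that is 25740, 309098, 27583 and 338733 UMIs. Both labelled KO libraries stood far above both controls, and Hmox1 alone made up 1.04% and 0.747% of all UMIs of these cells against 0.0692% and 0.0507% in the controls. Labelled KO over control came to 15.1-fold (14.9 to 15.3) on the earlier day and 14.7-fold (14.5 to 14.9) on the later one. On the log2 scale the day-4 difference was 0.03 below that of day 2 (-0.06 to -0.01), so that the size of the gap was close to equal at both days.

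In monocyte-like and neutrophil-like cells, too, both libraries labelled KO stood above both controls for Hmox1. Monocyte-like cells held 334, 6403, 1285 and 4495 CPM, a 19.2-fold gap (18.8 to 19.6) on the earlier day and a 3.50-fold gap (3.21 to 3.82) on the later day. A single cell gave 354 of the 634 Hmox1 UMIs of the 49 control monocyte-like cells at dpi4, and without the top cell of each library the control was at 617 CPM and the ratio was 6.90. On the log2 scale this Hmox1 ratio was 1.81, and other filters and clusterings gave 1.46 to 3.82. Neutrophil-like cells held 110.1, 5622, 109 and 3157 CPM from 170, 16733, 41 and 313 UMIs. Their controls were the lowest of the 3 classes that Lyz2-Cre is known for, and their ratios of 51.1 (43.9 to 59.8) and 28.9 (20.8 to 41.1) were the highest. With a clustering resolution of 2 the later ratio was 58.0.

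Dendritic cell-like and T or NK cell-like cells had less Hmox1 than macrophage-like and monocyte-like cells in every library. Dendritic cell-like cells held 76.6, 606.5, 117 and 666.4 CPM, with ratios of 7.92 (7.02 to 8.95) and 5.69 (5.22 to 6.20). Few cells carried much of these sums, since the top cell of each library gave 115 of 301, 630 of 2534, 158 of 621 and 309 of 3690 Hmox1 UMIs. Without those cells the level was 47.5, 461, 87.7 and 614.7 CPM, and the median cell held 0, 1.604, 0 and 1.94 Hmox1 UMIs per 10000. With each library clustered alone the log2 ratios of Hmox1 in this class were 5.19 and 1.28, against 2.99 and 2.51 here. The T or NK cell-like cells, lymphocytes in which Lyz2-Cre is not known to act, held 12.9, 239, 148 and 244 CPM from 6, 44, 87 and 195 UMIs. In the control at dpi4, 79 of the 87 UMIs lay in 1 of 80 cells, and without it the level was 14.4 CPM. With that cell left out, Hmox1 in the lymphocytes of the libraries labelled KO was also above that of the controls.

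**Figure D1:**
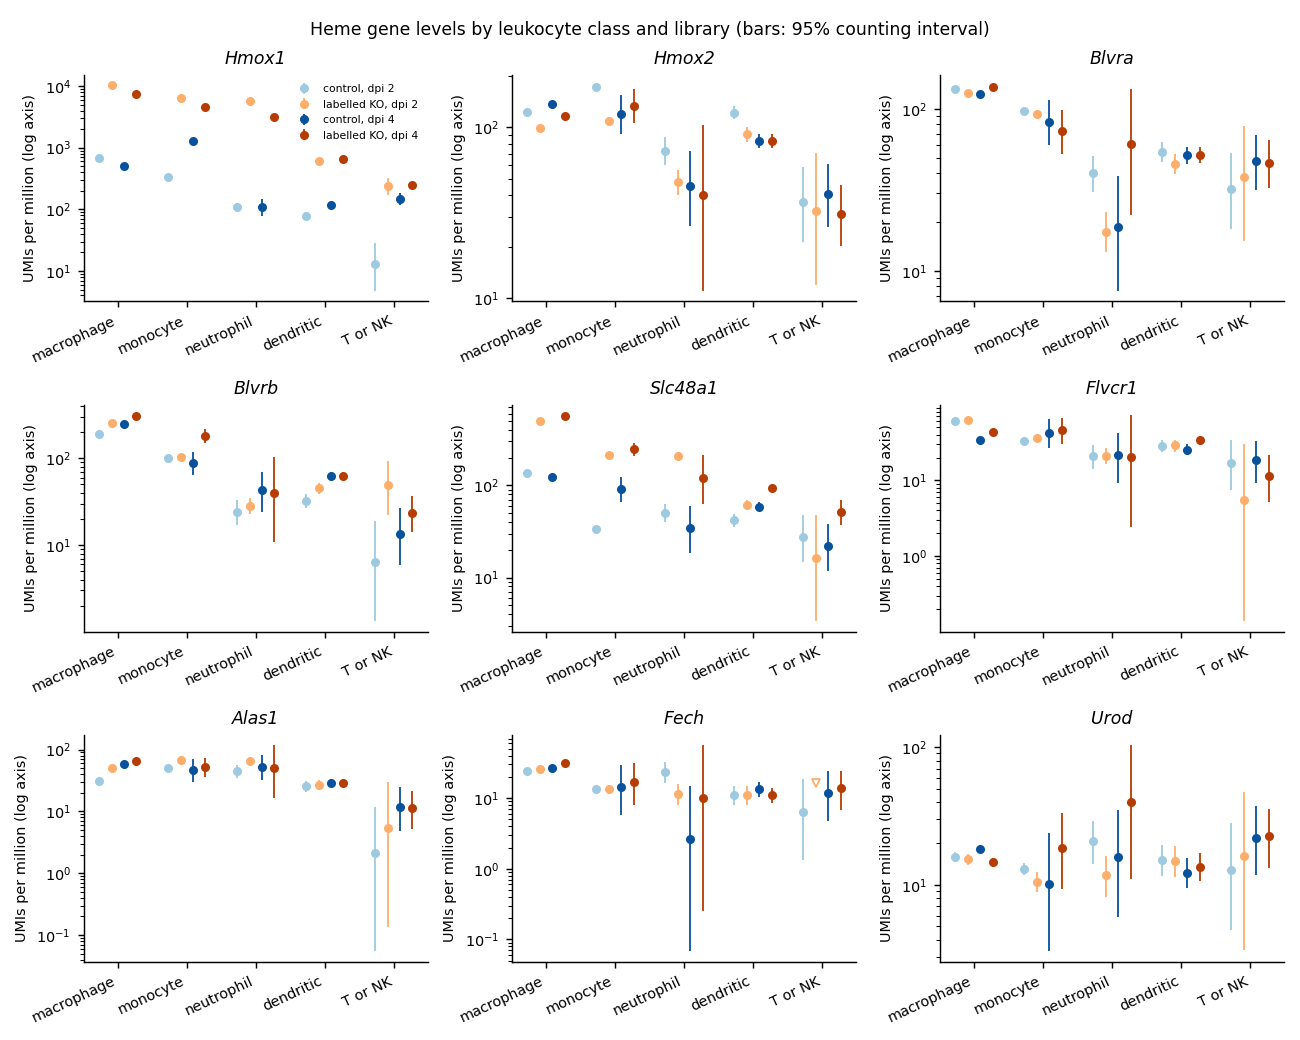
Level of each of the 9 heme genes in CPM (vertical log axis, 1 panel per gene) by leukocyte-like class, with 1 point per library coloured by genotype and day and 95% counting intervals as bars; an open triangle marks the upper limit of a library with no UMI. Hmox1 and Slc48a1 of macrophages stand higher in both libraries labelled KO (Hmox1 at 10419 and 7467 CPM against 692 and 507), whereas the other 7 genes differ by less than 2-fold there.

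Droplets also carry free RNA from lysed cells, and RNA from 1 source keeps its genes in 1 ratio in every class. Hmox1 was therefore divided by the summed UMIs of the 12 macrophage markers. In macrophage-like cells this gave 0.0421, 0.538, 0.0118 and 0.209 Hmox1 UMIs per marker UMI. T or NK cell-like cells gave 0.564 (0.381 to 0.827) in the labelled KO library at dpi2 and 0.198 (0.169 to 0.231) at dpi4, intervals that held the macrophage-like value of the same library. In the controls they gave 0.025 (0.00908 to 0.0552) at dpi2, which held it. At dpi4 they gave 0.0608 (0.0484 to 0.0755), above it, with 79 of the 87 Hmox1 UMIs in 1 cell. The few B cell-like cells of the libraries labelled KO gave 0.184 (0.118 to 0.277) from 12 cells and 0.174 (0.135 to 0.222) from 16 cells, the first below the macrophage-like value and the second holding it. Dendritic cell-like cells gave 0.388 and 0.158 in the libraries labelled KO, below the macrophage-like value, and 0.0583 and 0.0179 in the controls, above it. Macrophage markers were at 1564 and 4218 CPM in the labelled KO dendritic cell-like cells, against 423 and 1233 CPM in T or NK cell-like cells. The part of free RNA in the Hmox1 of these classes was not tested.

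Neutrophil-like cells gave 6.23 (5.98 to 6.49) and 1.04 (0.888 to 1.23) Hmox1 UMIs per macrophage-marker UMI in the libraries labelled KO, and monocyte-like cells 1.11 (1.10 to 1.12) and 0.394 (0.377 to 0.412). Both classes were above the macrophage-like value of their library at both days. The same held in the controls, at 0.118 and 0.0295 in neutrophil-like and 0.0687 and 0.0888 in monocyte-like cells. The part of free RNA in their Hmox1 was not tested.

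**Figure D2:**
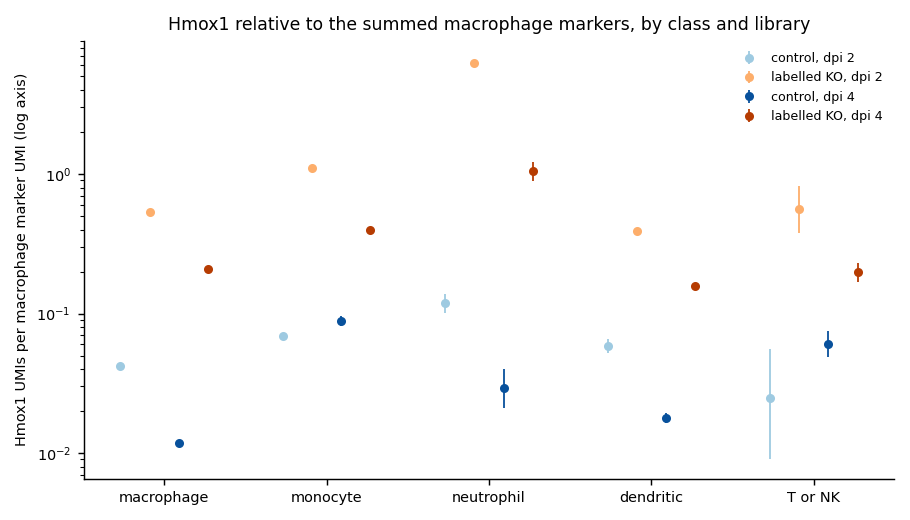
Hmox1 UMIs per summed UMI of the macrophage markers (vertical log axis) in each class, with 1 point per library coloured by genotype and day and 95% counting intervals as bars. The T or NK cells of the libraries labelled KO sit at the macrophage value (0.564 against 0.538 at dpi2), whereas neutrophils sit above it (6.23).

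Most individual cells of the libraries labelled KO carried more Hmox1 than the typical control cell. Per 10000 UMIs of a cell, the median macrophage-like cell held 3.39, 109, 1.37 and 68.2 Hmox1 UMIs, and the median neutrophil-like cell 0, 48.7, 0 and 25.1. Of the macrophage-like cells labelled KO, 79.0% (846 of 1071) at dpi2 and 91.8% (2337 of 2547) at dpi4 lay above the 90th percentile of the control. For neutrophil-like cells this was 98.1% (808 of 824) and 91.4% (32 of 35). The spread within the labelled KO macrophage-like cells at dpi2 was wide, from 4.92 at the 10th percentile to 202 at the 90th.

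The macrophage-like cells labelled KO at or under the control's 90th percentile of Hmox1 were not spread evenly over the sub-clusters. In the cycling sub-cluster, led by Top2a and Birc5, they were 54.7% (29 of 53) at dpi2 and 21.0% (29 of 138) at dpi4. In the sub-cluster led by Hmga2 and Htr2b they were 32.4%, and in that led by Jag1 12.2%, both at dpi2. In the sub-cluster led by Slc40a1, the ferroportin gene, and Vcam1 they were 1.16% (9 of 778) at dpi4. Sub-clusters differ in depth, and its part in these shares was not tested.

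**Figure D3:**
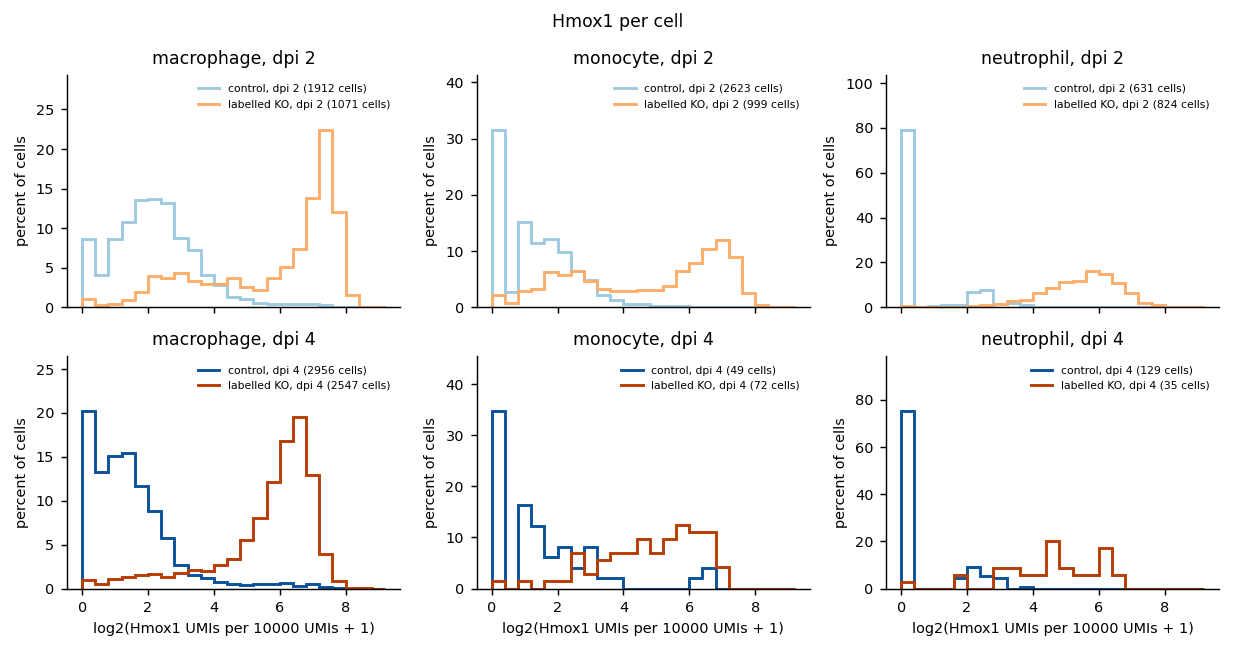
Histograms of Hmox1 over single cells, as the percent of cells (vertical axis) by log2 of Hmox1 UMIs per 10000 UMIs plus 1 (horizontal axis), for macrophages, monocytes and neutrophils at each day, control in blue and labelled KO in orange, 1 library each. The labelled KO curves lie to the right, with 79.0% of macrophage-like cells at dpi2 above the control's 90th percentile and a lower tail that overlaps the control.

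When each cell was thinned to 2000 UMIs, Hmox1 was detected in 53.6, 92.5, 31.4 and 94.3% of macrophage-like cells (91.7, 99.1, 80.5 and 99.1% without thinning, median depth 15369 to 26429 UMIs). In T or NK cell-like cells, set beside them as a class in which Hmox1 is not expected, the shares were 3, 41.7, 6.67 and 40.6% (5.88, 69.4, 11.3 and 72.7% without thinning, median depth 3951 to 5000.5 UMIs). The thinning left out 54, 26, 82 and 74 shallower macrophage-like cells and at most 5 T or NK cell-like cells of a library. The neutrophil-like share was 17.0, 98.3, 20 and 93.8% (20.9, 99.4, 24.8 and 97.1% without thinning, with 166, 54, 9 and 3 cells left out), above the T or NK cell-like share of the same library in each. The dendritic cell-like share in the libraries labelled KO was 34.2% (28.2 to 40.5) and 39.0% (34.5 to 43.7), with intervals that overlapped those of the T or NK cell-like cells, 25.5 to 59.2 and 32.0 to 49.7. Without thinning it was 84.3 and 85.0%, above the T or NK cell-like share. Median depth in these libraries was 14132 and 10773 UMIs in dendritic cell-like cells, against 4736.5 and 4846 UMIs in T or NK cell-like cells. The part of depth in the unthinned shares was not tested.

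Hmox2, the constitutive heme oxygenase, was under 2-fold apart in macrophage-like cells and lower in the libraries labelled KO. Its level in macrophage-like cells was 123, 98.3, 137 and 117 CPM, so that at each day the labelled KO library was the lower one. The log2 ratios were -0.32 (-0.39 to -0.26) and -0.23 (-0.28 to -0.18) on the earlier and the later day. In monocyte-like cells at dpi2 Hmox2 was 172 CPM in the control and 108 in the labelled KO library, a ratio of 0.629 (0.594 to 0.666). Within the 3 monocyte-like clusters with at least 50 cells of both genotypes the Hmox2 ratio was nearer to 1, at 0.845 (0.761 to 0.937), 0.755 (0.656 to 0.866) and 0.840 (0.683 to 1.04). The part of the cluster makeup in the class value was not tested. At dpi4 the monocyte-like log2 ratio was 0.16 (-0.34 to 0.67) from 59 and 79 UMIs. All 7 sub-clusters compared at dpi2 had Hmox2 ratios below 1 (0.695 to 0.971), as did the 6 with enough UMIs at dpi4 (0.732 to 0.940). At both days some of these intervals held 1, as in the sub-cluster led by Top2a and Birc5 (0.755 to 1.04 and 0.808 to 1.06). In the macrophage-like cluster led by Jag1 and Pdpn the Hmox2 ratio at dpi2 was 1.03 (0.835 to 1.29). None of these values reached 2-fold.

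The biliverdin reductases were close between genotypes in macrophage-like cells. Blvra, which encodes the reductase of the main biliverdin isomer in adults, was 133, 126, 124 and 137 CPM, with log2 ratios of -0.08 (-0.14 to -0.02) and 0.15 (0.10 to 0.20). Blvrb, which encodes a reductase that also acts as a flavin reductase, was 191, 253, 249 and 310.2 CPM and was higher in the labelled KO library at both days, by 0.40 (0.35 to 0.45) and 0.32 (0.28 to 0.35) on the log2 scale. In monocyte-like cells at dpi4 Blvrb was 89.2 CPM in the control and 183 in the labelled KO library, a ratio of 2.05 (1.43 to 2.98) from 44 and 108 UMIs. That value turned the other way when each library was clustered alone (log2 ratio -0.23).

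Slc48a1, the exporter of heme from the phagolysosome, was the other member that was higher in the libraries labelled KO by more than 2-fold in macrophage-like cells. It stood at 135, 496, 124 and 572 CPM, both labelled KO libraries above both controls. The gap was 3.68-fold (3.56 to 3.80) at the earlier and 4.63-fold (4.50 to 4.75) at the later day, a log2 difference 0.33 (0.27 to 0.39) larger at dpi4. Monocyte-like cells held 33.4, 214, 91.2 and 247 CPM of Slc48a1, with ratios of 6.39 (5.94 to 6.89) and 2.71 (1.93 to 3.87). The later ratio rests on 45 and 146 UMIs and was 18.5 with a mitochondrial share under 5%.

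Neutrophil-like cells held 50.5, 207, 34.6 and 121 CPM of Slc48a1, with a ratio of 4.11 (3.24 to 5.27) at dpi2 and only 13 and 12 UMIs at dpi4. Dendritic cell-like cells were at 41.7, 61.3, 58.7 and 93.2 CPM, ratios of 1.47 (1.20 to 1.80) and 1.59 (1.38 to 1.83), short of 2-fold. Slc48a1 passed 2-fold there with each library clustered alone at dpi2 (log2 ratio 1.29) and without doublet removal at dpi4 (1.01). Other alternatives lowered its log2 ratio. At dpi4 it was -0.06 with each library clustered alone, against 0.67 here. At dpi2 it was 0.20 with the mean over cells, against 0.55 here. T or NK cell-like cells were at 27.8, 16.3, 22.0 and 51.3 CPM from 13, 3, 13 and 41 UMIs. After thinning to 2000 UMIs, Slc48a1 was seen in 21.6, 56.7, 19.5 and 63% of macrophage-like and 5, 5.56, 1.33 and 9.38% of T or NK cell-like cells. Unthinned macrophage-like cells gave 73.4, 94.2, 69.7 and 94.2%, and unthinned T or NK cell-like cells 11.8, 5.56, 11.3 and 23.5%.

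Flvcr1, the heme exporter of the cell membrane, did not follow Slc48a1. It was 61.4, 61.9, 33.8 and 43.9 CPM in macrophage-like cells, with log2 ratios of 0.01 (-0.08 to 0.10) and 0.38 (0.29 to 0.47). Over the class, Flvcr1 was lower at dpi4 than at dpi2 by 0.86 in the controls and by 0.49 in the libraries labelled KO on the log2 scale. Most macrophage-like cells lay in different clusters at each day. In the controls, 3 clusters held at least 50 cells at both days. Flvcr1 went from 73.2 to 45.1 CPM in that led by Hmga2 and Htr2b and from 51.5 to 54.5 CPM in that led by Mmp12 and Mfge8. In that led by Birc5 and Top2a it went from 31.0 to 41.0 CPM. In the libraries labelled KO it went from 78.7 to 66.6 CPM in the Hmga2 and Htr2b cluster. In the Mmp12 and Mfge8 cluster it went from 75.2 to 62.1 CPM there. The part of the cluster makeup in the class value was not tested.

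Among the synthesis genes, Alas1, which encodes the first and rate-limiting enzyme, was 31.3, 51.1, 59.6 and 65.4 CPM in macrophage-like cells. The control at dpi2 was the lowest of the 4 libraries and the others lay close together. The log2 ratios were 0.71 (0.60 to 0.82) and 0.13 (0.06 to 0.21), a difference of -0.57 (-0.71 to -0.44) between the later and the earlier day. Monocyte-like cells at dpi2 had 49.5 and 69.0 CPM of Alas1, a log2 ratio of 0.48 (0.36 to 0.60), and neutrophil-like cells 44.7 and 65.5 CPM, a log2 ratio of 0.55 (0.15 to 0.97).

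Urod, uroporphyrinogen decarboxylase, and Fech, ferrochelatase, which inserts the iron, stayed under 2-fold in macrophage-like cells. Urod was 15.9, 15.4, 18.2 and 14.6 CPM in macrophage-like cells (log2 ratios -0.05, -0.22 to 0.13, and -0.31, -0.46 to -0.17). Fech was 24.3, 25.9, 26.9 and 31.6 CPM (log2 ratios 0.10, -0.05 to 0.24, and 0.23, 0.12 to 0.34). The 7 erythroid marker genes found in the files summed to at most 1.41 CPM in macrophage-like cells, and the erythroid synthase Alas2 gave at most 1 UMI.

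A gene was called at 2-fold in either direction where the counting interval of the ratio did not hold 1 and the pair held at least 50 UMIs. In macrophage-like cells Hmox1 and Slc48a1 were called at dpi2, 2 of 9 members against 4.50% of the 11101 genes with enough UMIs, and the same 2 of 9 at dpi4 against 2.33% of 11923. The median log2 ratio of the 9 heme genes was 0.10 and 0.23, against -0.02 and 0.02 over all genes. In monocyte-like cells 2 of 9 were called at dpi2 (all genes 4.51%) and 3 of 6 at dpi4 (all genes 3.38%), the third being Blvrb. Dendritic cell-like cells had Hmox1 alone, 1 of 9 at each day (all genes 2.77% and 1.41%). In T or NK cell-like cells, where few members had 50 UMIs, Hmox1 was called higher at dpi2, 1 of 1 (all genes 4.89%), and Slc48a1 at dpi4, 1 of 3 (all genes 3.39%), with a ratio of 2.32 (1.22 to 4.73). The Slc48a1 call was lost with a mitochondrial share under 5%. Without the top cell of each library the Hmox1 pair at dpi2 fell short of 50 UMIs, and at dpi4 Hmox1 was called with a ratio of 16.0. The Hmox1 call at dpi2 was also lost with a mitochondrial share under 5%, and its ratio was 18.1 to 69.4 over the alternatives.

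Neutrophil-like cells had Hmox1 and Slc48a1 called higher and Blvra and Fech called lower at dpi2, 4 of 9 against 9.34% of all genes, and Hmox1 alone at dpi4, the 1 heme gene with 50 UMIs (all genes 6.29%). The lower calls rest on few UMIs, 62 and 52 for Blvra (40.1 and 17.5 CPM) and 36 and 34 for Fech (23.3 and 11.4 CPM). The median log2 ratio of all genes in this comparison was -0.31, and neither lower call held with TMM factors, which gave -0.89 for Blvra and -0.72 for Fech.

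**Figure D4:**
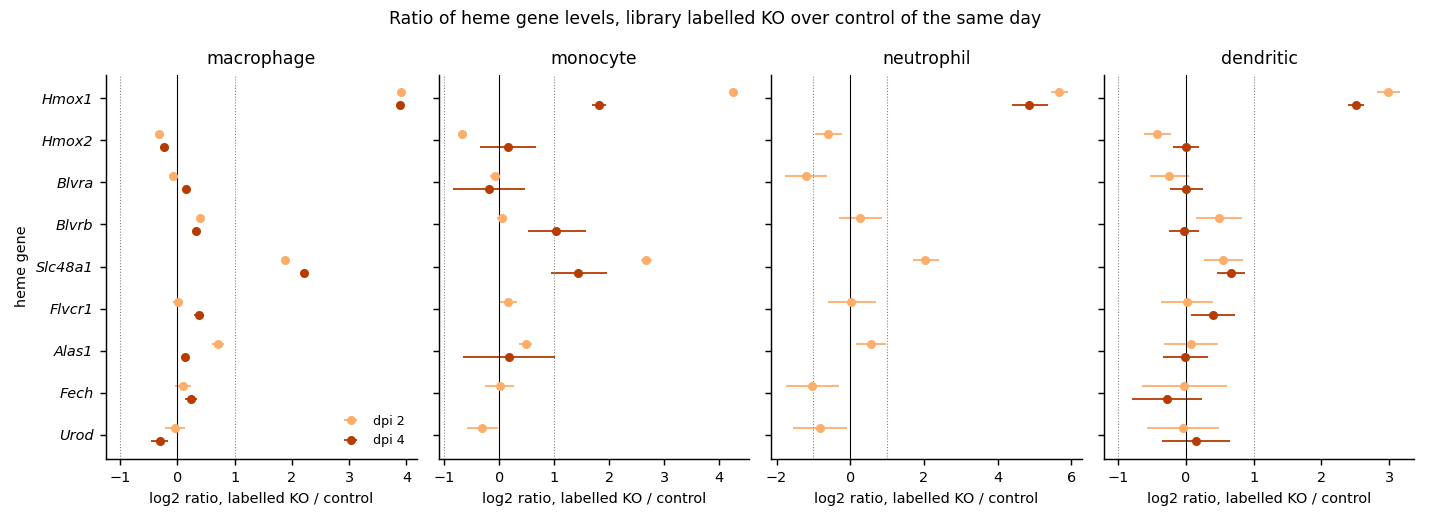
Log2 ratio of the library labelled KO to the control of the same day (horizontal axis, scaled per panel) for the 9 heme genes in 4 myeloid classes, with 95% counting intervals as bars, dotted lines at 2-fold, and only genes with at least 50 UMIs in the pair. Hmox1 lies between 1.81 and 5.67 in the 4 panels and Slc48a1 between 1.44 and 2.68 in macrophages, monocytes and neutrophils, while the other 7 genes lie within the dotted lines in macrophages.

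Between days, no member was called in macrophage-like cells, 0 of 9 in the controls (all genes 15.7%) and 0 of 9 in the libraries labelled KO (all genes 13.8%). With TMM or DESeq2 size factors Alas1 was called in the controls (log2 1.01 with TMM). Hmox1 was lower at dpi4 by 0.45 in the controls and by 0.48 in the libraries labelled KO on the log2 scale. Within the macrophage-like clusters that held at least 50 cells at both days Hmox1 went the other way. In the controls it was 700.2 and 1607 CPM in the cluster led by Hmga2 and Htr2b, 362 and 719.8 CPM in that led by Mmp12 and Mfge8, and 482 and 1008 CPM in that led by Birc5 and Top2a. In the libraries labelled KO it was 9299 and 10535 CPM in the first and 3791 and 8861 CPM in the second. Over the class, Blvrb was higher at dpi4 by 0.38 and 0.30, and Alas1 by 0.93 and 0.36. Blvrb in the cluster led by Mmp12 and Mfge8 was lower at dpi4. It was 360.4 and 255 CPM in the controls and 386 and 307 CPM in the libraries labelled KO. Alas1 there went from 56.8 to 92.5 CPM in the controls and from 168 to 93.2 CPM in the libraries labelled KO. In that led by Hmga2 and Htr2b, Blvrb went from 170 to 191 CPM in the controls. In the libraries labelled KO it went from 232 to 185 CPM. Alas1 in this cluster rose from 29.5 to 44.4 CPM and from 40.8 to 58.6 CPM. In that led by Birc5 and Top2a, the controls went from 168 to 180 CPM of Blvrb and from 39.9 to 45.4 CPM of Alas1. The part of the cluster makeup in these class values was not tested.

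In the other classes the main settings gave 4 calls between days, all higher at dpi4 and all lost under some alternatives. Some alternatives added calls, in both directions. With TMM factors Blvra in control neutrophil-like cells (log2 ratio -1.30) was called lower at dpi4. So were Hmox1 (-1.16) and Slc48a1 (-1.10) in those labelled KO. With each library clustered alone Blvrb was called higher in control dendritic cell-like cells (1.31). In the control monocyte-like cells, 2 of 9 were called (all genes 6.65%), Hmox1 with a ratio of 3.84 (3.54 to 4.17) and Slc48a1 with 2.73 (1.98 to 3.68), and each was called under 8 of 14 alternatives and not without the cell with the most Hmox1. In the neutrophil-like cells labelled KO, Blvra was called, 1 of 7 (all genes 17.5%), with a ratio of 3.46 (1.22 to 8.06) from 52 and 6 UMIs, and under 9 of 13 alternatives. In the control T or NK cell-like cells, Hmox1 was called, 1 of 1 (all genes 5.99%), with a ratio of 11.5 (5.07 to 32.1), but not without its top cell.

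The mice of the days were different animals, and the day and the library cannot be told apart.

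The differences in Hmox1 and Slc48a1 were found in each monocyte and macrophage sub-cluster that held at least 50 cells of both genotypes. Hmox1 was called higher in 7 of 7 sub-clusters at dpi2, by 5.17-fold to 32.5-fold, and in 7 of 7 at dpi4, by 6.19-fold to 30.2-fold. Slc48a1 was called higher in 7 of 7 at both days, with ratios of 2.51 to 6.69 and 2.82 to 7.38. Of all genes with enough UMIs in the 7 sub-clusters, 0.384% at dpi2 (4 of 1042, Lyz1 among them) and 0.465% at dpi4 (5 of 1075, the others being Gclm, Lyz1 and Slc40a1) were called higher in all of them. The other 7 heme genes were called in none of these sub-clusters.

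In the clusters of all cells at dpi2, Alas1 was called higher in the macrophage-like cluster led by Mmp12 and Mfge8, with a ratio of 2.95 (2.02 to 4.44) from 32 and 185 UMIs in 70 and 58 cells (all genes 7.92%). The unnamed cluster led by Pdcd1lg2 and Il1f9 scored highest for neutrophil markers, but its cells are not in the neutrophil-like values. In it, 3 of the 7 members with enough UMIs were called, all higher (all genes 13.8%). They were Hmox1, with a ratio of 34.1 (27.4 to 43.1), Slc48a1, with 26.7 (10.4 to 98.2) from 4 and 739 UMIs, and Blvrb, with 2.59 (1.67 to 4.24) from 21 and 377 UMIs.

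One of the 7 sub-clusters of each day, led by Lars2 and AY036118, was shallow, with a median of 1726 UMIs per cell. It gave the lowest Hmox1 ratio at dpi2, where the next was 10.7, and the lowest Slc48a1 ratio at dpi4, from 47 and 111 UMIs, where the next was 3.37. In the sub-cluster led by Ifitm6 and Hp, Hmox1 was 131 CPM in the control and 4243 in the labelled KO library at dpi2. In that led by Gja1, Ppbp and Cd163, the hemoglobin-haptoglobin receptor, it was 777 and 10443 CPM, the highest labelled KO level among those compared. At dpi4 the sub-cluster led by the MHC class II gene H2-Aa and Cd83 had 253 and 3959 CPM, and that led by the interferon-induced gene Iigp1 had 187 and 5635 CPM of Hmox1.

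Several sub-clusters had too few control cells to be compared. In the one led by Slc40a1, Vcam1 and Spic, genes of iron-exporting macrophages, the 778 labelled KO cells at dpi4 had 8058 CPM of Hmox1 and 636 CPM of Slc48a1. The sub-cluster led by Jag1 held 40 and 492 cells at dpi2, with 12212 CPM of Hmox1 in the labelled KO library, and that led by Cxcl3 and Ptgs2 held 40 and 578, with 6717 CPM.

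**Figure D5:**
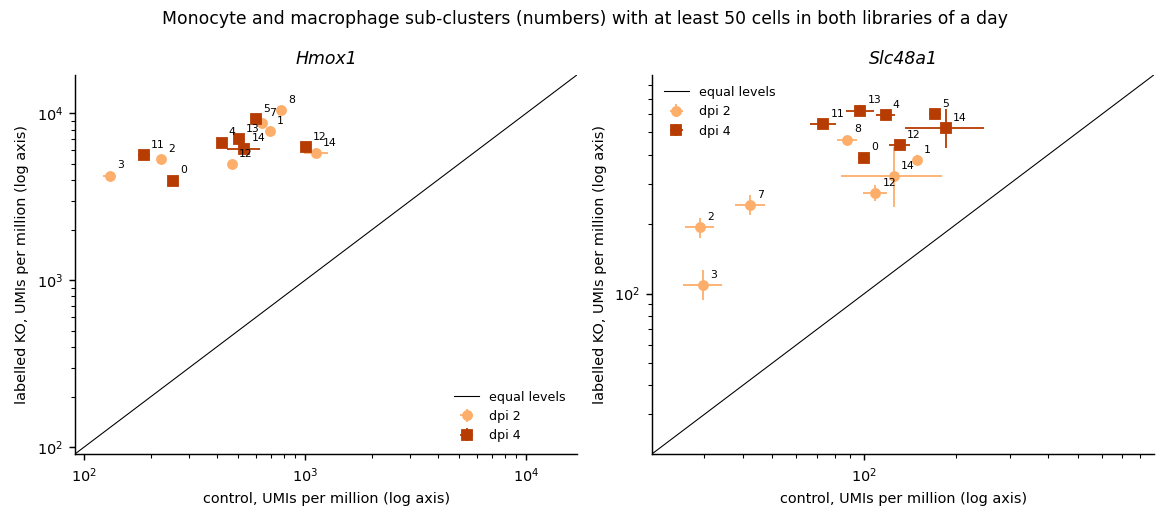
Level of Hmox1 and of Slc48a1 in the labelled KO library (vertical log axis, CPM) against the control (horizontal log axis, CPM) in the numbered monocyte and macrophage sub-clusters with at least 50 cells in both libraries of a day, with 95% counting intervals as bars and a line at equal levels. Each of the 7 points per day lies above the line, by 5.17-fold to 32.5-fold for Hmox1 on the earlier day and by 6.19-fold to 30.2-fold on the later day.

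The wider heme pathway was followed through 32 further genes in macrophage-like cells. At dpi2 4 of the 29 with enough UMIs were called higher, against 2.32% of all genes, and none lower. They were Spic, a factor of red pulp macrophages (log2 ratio 5.29), Cd163 (1.55), the hemoglobin scavenger haptoglobin Hp (1.54) and the small MAF gene Maff (1.35). At dpi4 2 of 29 were called higher, against 0.998% of all genes, Spic (4.01) and Por, the electron donor of heme oxygenase (1.45). Hp was 5.89, 17.1, 4.87 and 2.56 CPM, so that at dpi4 the labelled KO library was the lower one (log2 ratio -0.93, -1.26 to -0.61), and Cd163 was 25.05, 73.5, 10.0 and 9.94 CPM, with a log2 ratio at dpi4 of -0.01 (-0.19 to 0.17). Spic was 2.04, 79.8, 14.0 and 225 CPM and Por 311, 422, 83.9 and 229.8 CPM.

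None of the 5 other synthesis genes and none of the 8 other transport genes with enough UMIs was called at either day. Nfe2l2, which encodes NRF2, had log2 ratios of 0.37 and -0.31, and Bach1 had 0.22 and 0.09. Maff was 18.9, 48.1, 29.9 and 33.1 CPM.

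The genes whose level followed each member most closely over 20 class-by-library sums were sought among 10253 genes. For Hmox1 they were Htatip2 (Pearson r = 0.888), Gclm, a subunit of glutamate-cysteine ligase (0.878), and Slc48a1 (0.868), the highest r between any pair of members. For Slc48a1 they were Creg1 (0.882), Hmox1 (0.868) and Tfec (0.862). Among the closest genes to the others were Lgals3 for Hmox2 (0.952), Mrpl27 for Blvra (0.938), Snx24 for Blvrb (0.952), Cebpa for Flvcr1 (0.952), Fbxw4 for Fech (0.913) and Osgepl1 for Urod (0.847). The sums are 5 classes of the same 4 libraries and share their depth and free RNA, so these r values are descriptions.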

How the data were processed

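Gene by barcode matrices of UMI counts from 4 CD45+ libraries were used as deposited. The authors made these counts with Cell Ranger 6.1.2 on mm10, per the labels. Barcodes with at least 500 genes and a mitochondrial share under 10% were kept, and doublets were removed with Scrublet in scanpy 1.11.5 at an expected 0.8% per 1000 cells. Cells were clustered jointly (2000 variable genes without 41 heme pathway genes, 30 components, 15 neighbours, Leiden resolution 1) and named from 78 marker genes. The study's own annotation, miQC filter and Harmony integration were not used here. Counts were summed per class and library and scaled to CPM. With 1 library per group no test was run. Intervals are exact Poisson (CPM), conditional binomial (ratio) and Clopper-Pearson (share). edgeR 4.0.16 and DESeq2 1.42.0 gave alternative size factors only. Members and listed pathway genes were named in full or by the size rule. The most alike genes had at least 500 UMIs in classes of at least 30 cells. All were chosen with earlier results of these data known. Flvcr1 was matched by gene ID, since the files list it as Mfsd7b. The interval script was tested on simulated data. Values of some genes are not reported here.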

Additional observations from a re-analysis of the deposited data

Results flagged for a closer look

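Blvra in macrophage-like cells was on opposite sides of 1 at the 2 days, with a log2 ratio of labelled KO to control of -0.082 at dpi2 and 0.15 at dpi4. The log2 ratio was larger at dpi4 by 0.23 (0.15 to 0.31, counting error only). With 1 library in each group this difference was not tested against replicates.

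Hmox1 was also higher in the libraries labelled KO in data outside the classes compared above. In the barcodes left out by the filters it was 14.0-fold higher at dpi2 (556 against 7802 CPM) and 19.5-fold higher at dpi4 (318 against 6189 CPM). In the cells of clusters that could not be named it was 34.4-fold higher at dpi2 (303 against 10412 CPM) and 27.6-fold higher at dpi4 (219 against 6048 CPM). At dpi2 these were 90 control and 479 labelled KO cells, nearly all from a cluster led by Pdcd1lg2 and Il1f9. This cluster scored highest for neutrophil markers. It was left unnamed as shallow, with no neutrophil marker among its leading genes, so its cells are outside the neutrophil-like values. Its median was 3423 UMIs per cell, against 2896 in the named neutrophil-like cluster. At dpi4 the unnamed cells were 364 and 90, mostly from a cluster led by muscle transcripts such as Acta1.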

How the results depend on the processing

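No paired analysis was possible because each group holds 1 library, and no replicate could be left out. Hmox1 and Slc48a1 were called higher in macrophage-like cells under 14 of 14 alternatives at both days, with log2 ratios of 3.90 to 4.08 and 3.68 to 3.94 for Hmox1 and of 1.85 to 2.15 and 2.13 to 2.31 for Slc48a1. Over all classes, pairs and heme genes, 1574 of 1808 recomputed log2 ratios moved by less than the counting interval, 230 moved further and 4 reversed. A reversal was counted only where the ratio had been called, so uncalled ratios that changed sign are among the others. In control macrophage-like cells, dpi4 over dpi2, the uncalled Slc48a1 went from -0.13 to 0.43 with monocytes and macrophages pooled. Blvrb in monocyte-like cells at dpi4 went from 1.03 to -0.23 when each library was clustered alone. In the control monocyte-like cells, dpi4 over dpi2, Hmox1 went from 1.94 to -0.067 with monocytes and macrophages pooled, and Slc48a1 from 1.45 to -1.69 with a mitochondrial share under 5% and to -0.22 with at least 200 genes. The causes were not tested. Of 442 recomputed counts of heme genes called, 67 moved by over 1.5 times. Of 360 shares of cells with a UMI recomputed without thinning or at 1000 UMIs, 257 moved beyond their interval, and at 1000 UMIs Hmox1 was seen in 34.9% of the control macrophage-like and 8.65% of the control neutrophil-like cells at dpi2. Some counts of genes called between genotypes moved in the 4 myeloid classes. Monocyte-like cells at dpi4 had 1 gene called in place of 3 at a minimum of 200 UMIs. Neutrophil-like cells at dpi4 had 2 in place of 1 with no minimum. Dendritic cell-like cells at dpi2 had 3 in place of 1 with each library clustered alone. At dpi4 they had 2 in place of 1 without doublet removal and at 1.5-fold. Leaving out the cell with the most Hmox1, and leaving Lyz2 out of the clustering, were chosen after seeing the data. Neutrophil-like cells had the lowest depth of the classes compared, at a median of 2308 to 3421 UMIs. The 35 to 129 of them at dpi4 leave 1 heme gene with 50 UMIs. T or NK cell-like cells leave 1 at dpi2 and 3 at dpi4.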
